A study of Saccharomyces cerevisiae with 6 samples.

Results

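The disaggregase gene HSP104 and the stress genes HSP12, HSP26 and HSP42 were followed in budding yeast (Saccharomyces cerevisiae), in RNA of the temperature-sensitive mutant yra1-1 set against RNA of a Yra1 wild type. Members were every array feature whose gene symbol was HSP12, HSP26, HSP42 or HSP104, which gave 5 of 7680 features and 4 of 5583 named genes. HSP104 (YLL026W) had 2 features, numbered 4056 and 5811. HSP12 (YFL014W, feature 1643), HSP26 (YBR072W, feature 74) and HSP42 (YDR171W, feature 1074) had 1 each. The genes were chosen by name, as heat shock genes, with their values on these same arrays already known: HSP104 had stood out when arrays were turned by the labelled channel, and HSP12 and HSP26 in the columns as deposited. Their values are therefore given as a description, and no fit over all features is read as a test of them.

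Total RNA was compared on 6 two-colour arrays, each with yra1-1 RNA in one channel and Yra1 wild-type RNA in the other, both from cells at 37 °C, labelled as the non-permissive temperature. By the labels, yra1-1 RNA is the first channel of arrays 1, 4 and 6 and the second channel of arrays 2, 3 and 5. The sources used here do not give the strain background, the time spent at 37 °C or the cultures behind each RNA, so the spread between arrays may be technical. Both channels held RNA of cells at 37 °C, so a heat response common to both strains is not visible in these ratios.

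Hsp104 is a ring-shaped ATPase that pulls proteins out of aggregates together with Hsp70 chaperones of the Ssa family and their J-protein partners. Hsp26 and Hsp42 are small heat shock proteins of the alpha-crystallin type, which bind unfolding proteins without using ATP and hand them on to Hsp104 and Hsp70. Hsp12 shares the name but not the fold: it is a small hydrophilic protein that is unstructured in solution and associates with membranes. The heat shock factor Hsf1 and the general stress activators Msn2 and Msn4 drive these genes in yeast, Msn2 and Msn4 being the main activators of HSP12.

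Each value below is a log2 ratio after subtraction of the median of its array. Those medians were −1.90, 0.16, 4.11, −3.91, −0.44 and −3.01 on arrays 1 to 6. They were negative where yra1-1 was in channel 1, and positive where it was in channel 2 except on array 5. Unless said otherwise signs are those after centring, also for columns as deposited. Before centring every member feature was negative on arrays 1, 4 and 6 and positive on arrays 2, 3 and 5. The sources used here do not name the channel in the numerator, so 2 readings are kept side by side. The columns as deposited would have 1 direction throughout if the submitters had already turned them. In the turned reading the sign of arrays 2, 3 and 5 is reversed, so that it follows the labelled channel of the mutant. Neither reading settles whether a positive value means more RNA in yra1-1 or in wild type, and sides are called positive and negative. Pairs of arrays with the same channel assignment correlated at 0.042 to 0.386 across features (median 0.259, 6 pairs), and pairs with opposite assignment at −0.13 to 0.326 (median −0.03, 9 pairs). Array 1 stood apart for the strain marker genes TRP1 (−3.48 on array 1, 2.76 to 4.16 on the others) and URA3 (3.19 on array 1, −5.92 to −2.21 on the others), so member means are given with and without it. Only array 1 is titled mexyra1-1 rather than yra1-1; no source used here says what the prefix means, and its description names the same mutant.

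HSP104 took the sign of the labelled channel on all 6 arrays. As deposited, feature 4056 lay at −1.70, −1.12 and −0.72 on arrays 1, 4 and 6, where yra1-1 was in channel 1, and at 0.57, 1.31 and 2.35 on arrays 2, 3 and 5, where it was in channel 2. Feature 5811 lay at −1.87, −0.91 and −0.82 on arrays 1, 4 and 6 and at 0.78, 1.93 and 2.20 on arrays 2, 3 and 5. All channel 1 arrays were below 0 and all channel 2 arrays above it, with no overlap, for both features. Turned by the labelled channel, the gene averaged −1.36 ± 0.64 (SD, n = 6 arrays, both features averaged) and ranged from −2.27 on array 5 to −0.68 on array 2. Without array 1 the turned mean was −1.27 ± 0.67 (SD, n = 5). Across all features with a value on every array, 4.31% were negative on all 6 arrays after turning (327 of 7592). This pattern was known when HSP104 was chosen, so nothing is read from its place among them. Had the columns been turned before deposit, a sign that follows the labelled channel would belong to the channel, not the strain. These 2 cases cannot be told apart here, for HSP104 or for the other genes with this pattern.

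The same-day pairs gave HSP104 turned means close to each other, from arrays that differed more, and these values were known at its choice. Arrays 5 and 6 share a labelled day, coded 1, and carry opposite channel assignments, as do arrays 1 and 3, which share day 4. The turned mean of HSP104 was −1.52 within day 1 and −1.70 within day 4. As deposited it lay at 2.27 on array 5 and −0.77 on array 6 (day 1), and at −1.78 on array 1 and 1.62 on array 3 (day 4). In the columns as deposited its mean was 0.17 ± 1.61 (SD, n = 6), and without array 1 it was 0.56 ± 1.44 (SD, n = 5), since 3 arrays lay on each side of 0.

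**Figure D1:**
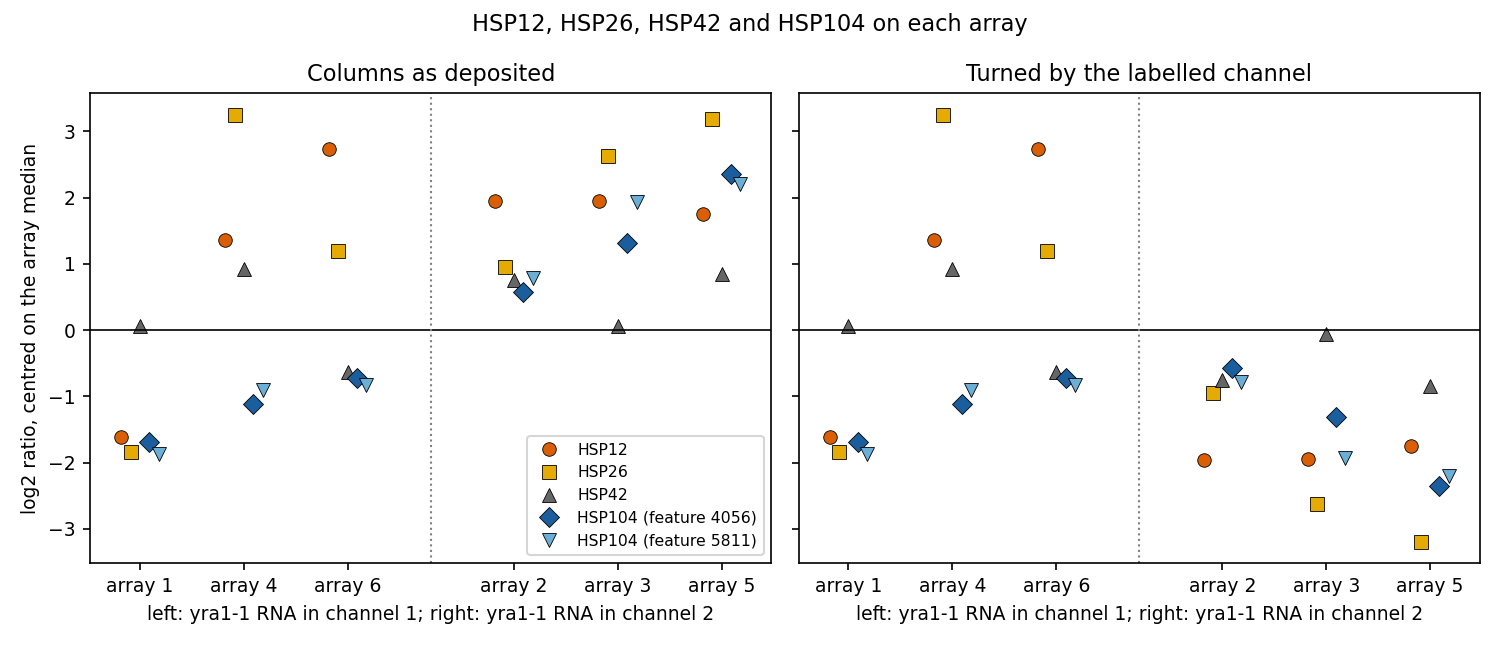
Log2 ratio of each of the 5 features on each of the 6 arrays, centred on the array median, as deposited (left panel) and turned by the labelled channel (right panel). Each point is 1 feature on 1 array, and the dotted line separates arrays with yra1-1 RNA in channel 1 from those with it in channel 2. Both HSP104 features are negative on all arrays after turning. In the columns as deposited HSP12 and HSP26 are above the array median on arrays 2 to 6 and below it on array 1.

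The HSP104 features repeated each other closely. They differed by 0.17, 0.21, 0.62, 0.21, 0.15 and 0.10 log2 units on arrays 1 to 6. The mean of these differences was 0.25, against a median of 0.78 over the 1094 genes with exactly 2 features and values on every array. Only 12 of the 1094 pairs had a smaller mean difference. The uncentred correlation of both HSP104 features over the 6 arrays was 0.98, against a median of 0.37 over all pairs, and 9 pairs had a higher one. The uncentred correlation is a cosine, which keeps its value whichever way an array is turned. Shared signs alone raise it, and HSP104 was chosen with its values known, so nothing is read from its place among the pairs.

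The features lie 1755 identifiers apart and have the same genes around them. Of the 8 nearest identifiers used here as neighbours on the slide, 7 carried the same gene name beside both HSP104 features: RPS21A, PAM17, SOF1, COX19, ENT4, IZH3 and YLR031W. The features of ENT4, an endocytic adaptor gene, differed far more than those of HSP104 on array 1, at 0.07 and 2.98. Both ENT4 features held exactly the value of an adjacent feature on all 6 arrays, as did 58 features in the table, so the values may not be those of ENT4 alone. No member feature and no feature of the gene lists described further on was among the 58. COX19, a gene for a copper-binding mitochondrial protein spotted directly beside HSP104, lay at −0.19 and −2.34 on array 2. RPS21A, a ribosomal protein gene, had the sign pattern of HSP104 at both places, at −0.87, −0.43 and −0.56 on arrays 1, 4 and 6 near feature 4056 and at −1.05, −0.12 and −0.90 near feature 5811. It was positive on arrays 2, 3 and 5 at both places.

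HSP12 took the opposite side on array 1 from the other 5 arrays. As deposited its value was −1.61 on array 1, against 1.96, 1.94, 1.36, 1.75 and 2.73 on arrays 2 to 6. Arrays 2 to 6 lay between 1.36 and 2.73 whichever channel held the mutant, and no value fell between −1.61 and 1.36. Before centring HSP12 was also negative on arrays 4 and 6, at −2.55 and −0.29. The mean of the columns as deposited was 1.35 ± 1.52 (SD, n = 6), and without array 1 it was 1.95 ± 0.50 (SD, n = 5). Turned by the labelled channel the gene had 2 positive and 4 negative arrays, with a mean of −0.53 ± 2.04 (SD, n = 6), or −0.31 ± 2.21 without array 1 (SD, n = 5). On each array HSP12 was far out among all features, at the 3.80 percentile on array 1 and between the 88.7 and 99.4 percentiles on arrays 2 to 6.

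HSP26 had the same split as HSP12, with more spread. As deposited its value was −1.83 on array 1, against 0.95, 2.63, 3.25, 3.19 and 1.19 on arrays 2 to 6. Before centring HSP26 was also negative on arrays 4 and 6, at −0.66 and −1.83. Its percentile among all features was 2.60 on array 1, 83.2 on array 2 and 89.8 on array 6, and 98.4 or higher on arrays 3, 4 and 5. The mean of the columns as deposited was 1.56 ± 1.93 (SD, n = 6), and 2.24 ± 1.10 without array 1 (SD, n = 5). Turned by the labelled channel the mean was −0.70 ± 2.47 (SD, n = 6) and −0.47 ± 2.69 without array 1 (SD, n = 5), with 2 positive and 4 negative arrays. Among features with a value on every array, 2.31% were negative on array 1 and positive on arrays 2 to 6 as deposited (175 of 7592), and nothing is read from the place of HSP12 and HSP26 among them.

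The days divided HSP12 and HSP26 otherwise than HSP104. As deposited, HSP12 averaged 2.24 within day 1 and 0.17 within day 4, and HSP26 averaged 2.19 and 0.40. After turning, HSP12 averaged 0.49 within day 1 and −1.78 within day 4, while HSP26 averaged −1.002 and −2.23. Array 1 belongs to day 4, so neither reading gave HSP12 a like value on both days.

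HSP42 stayed near the array medians. As deposited it lay at 0.06, 0.75, 0.06, 0.92, 0.85 and −0.64 on arrays 1 to 6. Its values ran from the 23.6 to the 80.4 percentile of all features, inside the range of most features on every array. The mean was 0.33 ± 0.61 as deposited and −0.22 ± 0.67 after turning (SD, n = 6), and without array 1 it was 0.39 ± 0.67 and −0.28 ± 0.74 (SD, n = 5), so under neither reading did the mean exceed the spread between arrays. Within days it averaged 0.10 and 0.06 as deposited for days 1 and 4, and −0.74 and 0.001 after turning. Hsp42 is the small heat shock protein of unstressed yeast cells, active also at normal growth temperature.

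HSP104 and the pair HSP12 and HSP26 parted on arrays 4 and 6. Only on those arrays do the sign patterns after centring, known at their choice, differ. The parting follows from the choice and nothing is read from it. HSP104 minus the mean of HSP12 and HSP26 was −3.32 on array 4 and −2.73 on array 6 (log2, columns as deposited). On arrays 1, 2, 3 and 5 the same difference was −0.06, −0.78, −0.67 and −0.20. Arrays 4 and 6 carry the mutant in channel 1, as array 1 does, and fall on different labelled days. HSP12 and HSP26 themselves differed by −1.89 (array 4) to 1.54 (array 6), HSP12 minus HSP26, without a common side.

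Over the 6 arrays HSP12 and HSP26 had an uncentred correlation of 0.85 with each other and the same sign on 6 arrays. HSP104 had 0.46 with HSP12 and 0.54 with HSP26, with the same sign on 4 arrays each. HSP42 had 0.33 with HSP12, 0.62 with HSP26 and 0.34 with HSP104. Without array 1 the value was 0.83 for HSP12 with HSP26, and 0.35 and 0.46 for HSP104 with HSP12 and HSP26. The points are the same 6 arrays throughout, and no test was made.

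HSP12 and HSP26 had the sign of the mutated gene YRA1 and the strain marker TRP1 on all 6 arrays, and of URA3 on 0. The uncentred correlation with YRA1 was 0.86 for HSP12 and 0.84 for HSP26, with TRP1 0.95 and 0.93, and with URA3 −0.92 and −0.89. Shared signs alone raise this measure, and the signs of HSP12 and HSP26 were known at their choice. Over arrays 2 to 6 HSP12 was highest on array 6 (2.73), where TRP1 was lowest (2.76). It was lowest on array 4 (1.36), where TRP1 was highest (4.16), as was HSP26 (3.25). For HSP104 the uncentred correlation was 0.68 with YRA1, 0.49 with TRP1 and −0.25 with URA3, and HSP104 had the sign of TRP1 on 4 of 6 arrays. The sources used here do not say whether the strains differ in these markers by construction, and its part in the values of HSP12 and HSP26 was not tested.

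Subtracting the values around them on the slide kept HSP12 and HSP26 on their sides of 0. Neighbouring features had similar values on every array (correlation 0.416 to 0.523 at 1 identifier apart), so each member was set beside the median of its 8 neighbours. Around HSP12 that median was 1.21 on array 6 and 0.89 on array 2, and −0.22 to 0.13 elsewhere. After subtracting it HSP12 stood at −1.40 on array 1, against 1.06, 1.81, 1.36, 1.63 and 1.51 on arrays 2 to 6. Those 5 arrays averaged 1.48 ± 0.28 (SD, n = 5), closer together than before the subtraction. HSP26 stood at −2.11 on array 1, against 0.63, 2.60, 2.26, 2.90 and 0.68 on arrays 2 to 6 after the same step.

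For HSP104 the subtraction left feature 4056 negative on all 6 arrays after turning, from −2.04 on array 5 to −0.34 on array 2. Feature 5811 was negative on 5 arrays, from −2.31 to −0.88, and at 0.10 on array 2, where its neighbours had a median of 0.88. The features directly beside HSP12, those of the cohesin gene SMC1 and the nitrogen regulator gene GAT1, lay at −0.22 and −0.18 on array 1 and at 0.85 and 1.54 on array 6. None of the 30 member values was identical to that of another feature on the same array.

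**Figure D2:**
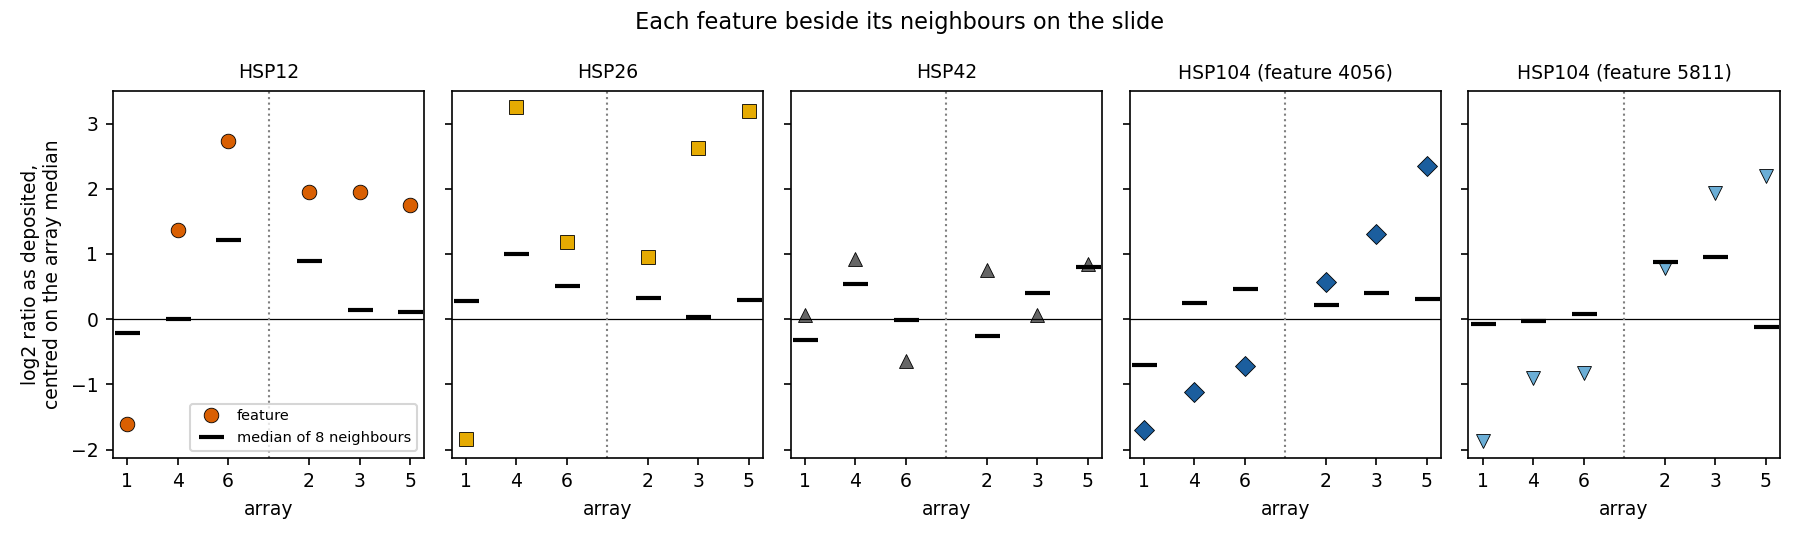
Log2 ratio as deposited, centred on the array median, of each of the 5 features (symbols) and the median of its 8 neighbours on the slide (bars) on the 6 arrays, with yra1-1 RNA in channel 1 on arrays 1, 4 and 6. The neighbours of HSP12 reach 1.21 on array 6 and those of HSP26 0.99 on array 4, below the feature in both cases.

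Some member values came from small whole numbers. Of the 30 values, 6 equalled the log10 of a ratio of whole numbers with a product below 10000000, within a relative tolerance of 1.3e-09. HSP12 was 274 over 3121 on array 1 and 187 over 43 on array 2. HSP26 was 707 over 9376 on array 1 and 2259 over 3580 on array 4, HSP104 feature 4056 was 747 over 9013 on array 1, and HSP42 was 3923 over 2079 on array 2. Terms may have lost a common factor, so they are the smallest signals that give the deposited ratio, and the channel of each term is unknown. Such ratios made up 36.8% of values on array 1 and 33.2% on array 2, and 5.78% to 14.0% on the other arrays. With them left out, HSP12 averaged 1.95 ± 0.57 as deposited (SD, n = 4 arrays) and 0.10 ± 2.32 after turning, and HSP104 averaged −1.37 ± 0.65 after turning (SD, n = 6, 1 feature on array 1).

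Features most like each member were sought by the uncentred correlation over the 6 arrays with every other named feature that had a value on each array. Over 6652 features (6651 for HSP104), 6 points leave wide room for high values, and no test was made. For HSP12 the highest were SEH1, a nuclear pore gene, CRG1, a methyltransferase gene, SIP18, the mitochondrial DNA-binding protein gene RIM1 and the activator gene GAL4, each at 0.97. SIP18 encodes a hydrophilin, and this feature had −0.79 on array 1, against 0.67, 0.60, 0.47, 0.68 and 1.57 on arrays 2 to 6. The other feature of SIP18 did not have that pattern, at −0.23, −0.18, −0.02, 1.21, 0.69 and −0.15 on arrays 1 to 6.

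For HSP26 the highest were CUP9, a repressor gene (0.99), PRE3, a proteasome core gene (0.98), RDL1 (0.96), PSY3, a DNA repair gene (0.94), and YBR053C (0.94). For HSP42 they were ACP1, the mitochondrial acyl carrier gene (0.99), the thioredoxin gene TRX1 (0.95), the ubiquitin ligase gene UBR2 (0.95), TCA17 (0.93) and ASP3-4 (0.93). For HSP104 they were MRPL13, a mitochondrial ribosomal protein gene, ARA1, an arabinose dehydrogenase gene, ERG20, the farnesyl diphosphate synthase gene, PIL1, an eisosome gene, and VOA1, each at 0.98. ERG20 lay at −1.50, −1.04 and −0.89 on arrays 1, 4 and 6 and at 0.73, 0.94 and 1.55 on arrays 2, 3 and 5. None of these 20 features lay within 2 rows and 2 columns of the member on a grid 20 identifiers wide.

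The genes around these 4 in the heat shock and general stress responses were described from 4 lists, which share SSA3 and HSP30 between them. Each feature was tested with limma across all 7680 features, with both readings in 1 fit, and called at a Benjamini-Hochberg adjusted p under 0.05. Of all features, 0.013% were called after turning (1 feature) and 1.65% in the columns as deposited (127 features). At an unadjusted limma p under 0.05 the shares were 13.0% and 13.5%. The count of 127 rested on arrays 4 and 6: without either one it was 0, with 817 (without array 4) and 783 (without array 6) features at an unadjusted limma p under 0.05. It was 45, 69 and 15 without arrays 1, 2 and 3, and 214 without array 5. None of the 5 member features was called under either reading in this fit over all 6 arrays. Without centring all 5 were called after turning, where 63.6% of all features were. With array weights both HSP104 features were called after turning, where 191 of 7680 features were. HSP12 and HSP26 were called as deposited with array weights, where 676 of 7680 were. HSP12 was also called as deposited without array 1, where 45 were. The members were chosen with these values known, so their calls test nothing, and nothing is read from any of these counts.

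**Figure D3:**
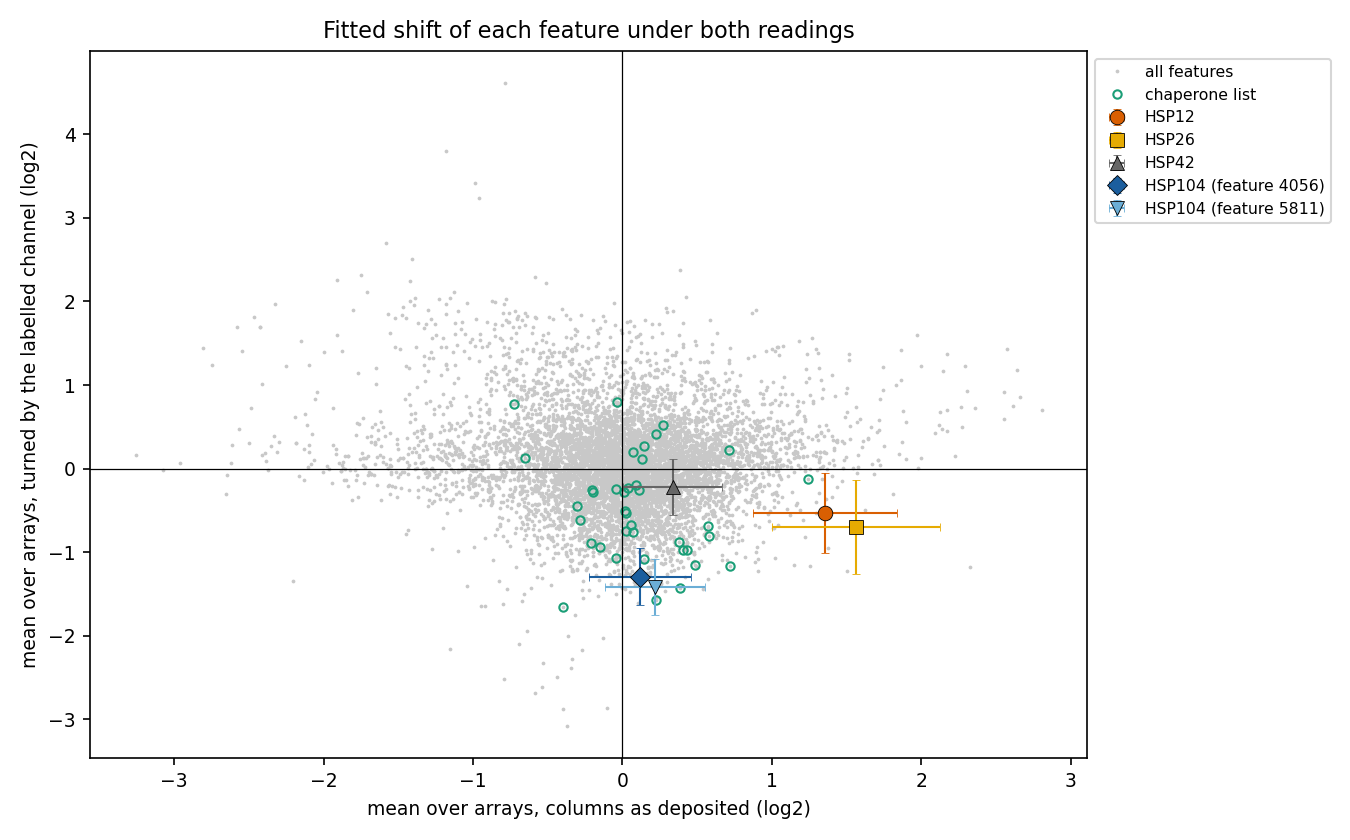
Fitted shift of every feature in the columns as deposited (horizontal axis, log2) against its shift after turning by the labelled channel (vertical axis, log2), with the 5 member features and their limma standard errors, and the 39 features of the chaperone list as open circles. HSP104 lies low on the vertical axis, with turned shifts of −1.30 and −1.42, while HSP12 (1.35) and HSP26 (1.56) lie to the right.

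Most features of a chaperone list lay on the side of HSP104 after turning. The list held 36 genes of the Hsp70 and Hsp90 systems, chaperones of mitochondria and the endoplasmic reticulum and other heat shock genes, with 39 features, and only some of them work directly with Hsp104. After turning, 30 of the 39 were negative, with a median of −0.53, against 3568 of 7680 and a median of 0.04 over all features. Of the 39, 0 passed in limma under either reading. At an unadjusted limma p under 0.05 there were 15 after turning and 1 as deposited, against 13.0% and 13.5% of all features. As deposited 27 were positive and the median was 0.07, against 0.02 over all features. The features with the smallest p after turning were those of HSC82, the constitutive Hsp90 gene, at −1.57 ± 0.42 (SE, 6 arrays, limma adjusted p = 0.234), and on the positive side APJ1, a J-protein gene, at 0.78 ± 0.37 (limma adjusted p = 0.404), and neither passed. In the columns as deposited they were HSP33, at 1.24 ± 0.50 (limma adjusted p = 0.278), and again APJ1, at −0.73 ± 0.37 (limma adjusted p = 0.453).

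Both sign patterns of the members recurred in this list. Like HSP104, 8 of the 39 features were negative on all 6 arrays after turning (20.5%, against 4.31% of all features). They belonged to the Hsp70 genes SSA2, with 1 of its features, and SSA3, MDJ1, a mitochondrial J-protein gene, HSP60, with 1 of its features, SBA1 with both its features, HSC82 and CPR6, the last 3 being Hsp90 and its helpers. Like HSP12 and HSP26, 4 of the 39 were negative on array 1 and positive on arrays 2 to 6 as deposited (10.3%, against 2.31% of all features): AHA1, HSP10, HSP33 and HSP82. These genes, and those of the Hsp90 and SSA families described next, were picked with their values in view.

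The Hsp90 genes divided between the patterns on arrays 4 and 6, like HSP104 and HSP26. HSC82 lay at −2.07, −0.58 and −1.39 on arrays 1, 4 and 6 and at 0.44, 1.41 and 3.53 on arrays 2, 3 and 5. HSP82, the heat-induced copy, lay at −2.30, 0.86 and 0.11 on arrays 1, 4 and 6 and at 0.52, 1.55 and 3.59 on arrays 2, 3 and 5. Their coding sequences are close copies, as are those of the SSA genes and of HSP31, HSP32 and HSP33, and probe sequences were not used here, so features of such genes may share signal. SSA4, the most heat-inducible Hsp70 gene, lay at −1.77, −2.32 and −2.06 on arrays 1, 4 and 6 and at −0.48, 0.62 and 3.62 on arrays 2, 3 and 5, so array 2 broke the pattern. SSA1 lay at −0.26, −0.43 and −0.20 on arrays 1, 4 and 6 and at 1.04, 1.02 and −1.45 on arrays 2, 3 and 5. There array 5, on which HSP104 was highest, broke the pattern. The J-protein genes of disaggregation did not share it: SIS1 lay between −0.54 and 0.51 on all 6 arrays and YDJ1 between −0.65 and 1.01.

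Genes activated by Msn2 and Msn4 formed the next list. Of 40 genes, 39 were measured with 49 features, and 0 passed in limma under either reading. At an unadjusted limma p under 0.05 there were 8 after turning and 4 as deposited, against 13.0% and 13.5% of all features. After turning 32 were negative and the median was −0.23. As deposited 30 were positive and the median was 0.14. The smallest p after turning belonged to PNC1, a nicotinamidase gene, at −1.15 ± 0.33 (SE, limma adjusted p = 0.249), and GDB1, the glycogen debranching gene, at 1.46 ± 0.74 (limma adjusted p = 0.446). As deposited they were TPS3, a trehalose synthase subunit gene, at 0.93 ± 0.31 (limma adjusted p = 0.177), and SOD2, the mitochondrial superoxide dismutase gene, at −1.56 ± 0.40 (limma adjusted p = 0.0840). The pattern of HSP12 and HSP26 was present in 2 of the 49 (4.08%, against 2.31% of all features), features of GRX1 and SOL4. That of HSP104 was present in 7 (14.3%, against 4.31% of all features). These included both features of HXK1 and of UBI4, and SSA3, which the chaperone list also counts. CTT1, the cytosolic catalase gene, had neither: its features lay between −0.95 and 0.95 and between −0.82 and 1.48.

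The next list was a mixed one of hydrophilins and membrane-associated or other stress proteins, only some of them like Hsp12 in size and character. Of its 17 features, 13 were positive after turning with a median of 0.17, and 12 were positive as deposited with a median of 0.06. In limma 0 passed under either reading, with 3 and 5 at an unadjusted p under 0.05, against 13.0% and 13.5% of all features. The smallest p after turning were those of TMA17, a proteasome assembly chaperone gene, at −1.17 ± 0.31 (SE, limma adjusted p = 0.234), and the hydrophilin gene GRE1 at 1.04 ± 0.47 (limma adjusted p = 0.382). As deposited they were the features of STF2, on opposite sides at 1.02 ± 0.34 (limma adjusted p = 0.176) and −1.66 ± 0.48 (limma adjusted p = 0.120). SIP18, with 1 of the 17 features (5.88%, against 2.31% of all features), was the only gene of this list with the pattern of HSP12. The pattern of HSP104 was present in 2 of the 17 (11.8%, against 4.31% of all features), those of TMA17 and PMP3.

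Regulators of both responses had medians near 0, at −0.10 after turning and 0.06 as deposited over 36 features of 32 genes (33 listed). In limma 0 passed, with 4 and 5 at an unadjusted p under 0.05, against 13.0% and 13.5% of all features. The smallest p after turning were those of RAS1, at 1.20 ± 0.33 (SE, limma adjusted p = 0.246), and the 14-3-3 protein gene BMH1, at −1.35 ± 0.43 (limma adjusted p = 0.266). As deposited they were TPK3, a protein kinase A gene, at 1.07 ± 0.31 (limma adjusted p = 0.124), and CDC25, an activator of Ras, at −1.05 ± 0.32 (limma adjusted p = 0.144). The features of HSF1, the heat shock factor gene, did not match each other, at 1.16, −1.09, 0.14, −0.84, −0.49 and −0.39 on arrays 1 to 6 for one and 0.07, 1.40, 2.39, 1.76, −0.64 and 1.76 for the other. MSN2 lay between −0.45 and 0.95 and MSN4 between −1.48 and 2.00. These 3 genes were named for their role, outside the rule. PSR1 had the pattern of HSP104 and BMH2 that of HSP12, both named for it. Each was 1 of 35 regulator features with a value on every array (2.86%, against 4.31% and 2.31% of all features).

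By array, the median of the chaperone list had the sign of HSP104 throughout. As deposited it was −0.63, −0.39 and −0.25 on arrays 1, 4 and 6 and 0.17, 0.57 and 1.39 on arrays 2, 3 and 5. Both were highest on array 5. HSP12 and HSP26 had the sign of that median on arrays 1, 2, 3 and 5 and the other sign on arrays 4 and 6. The medians of the Msn2 and Msn4 targets were −0.36, 0.03 and −0.18 on arrays 1, 4 and 6 and 0.33, 0.49 and 0.22 on arrays 2, 3 and 5.

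**Figure D4:**
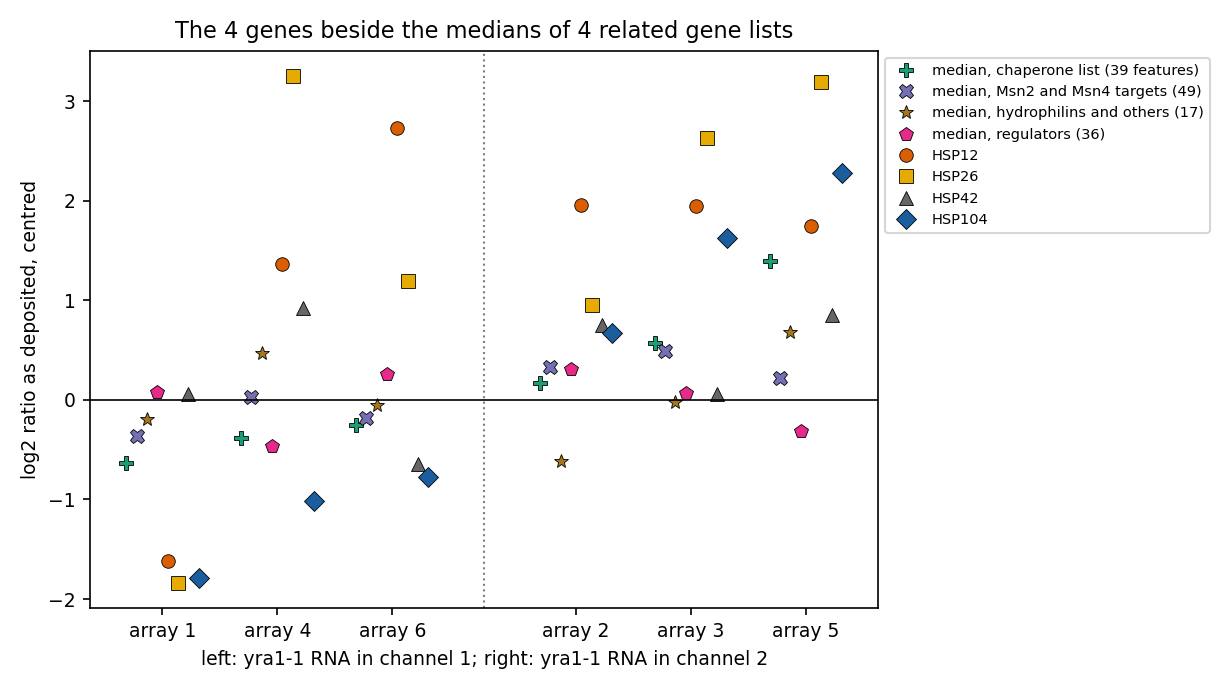
Log2 ratio as deposited, centred on the array median, of HSP12, HSP26, HSP42 and HSP104 (mean of its features) on each of the 6 arrays, beside the median of each of 4 gene lists with their numbers of features. The median of the chaperone list has the sign of HSP104 on all 6 arrays and the opposite sign to HSP12 and HSP26 on arrays 4 and 6.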

How the data were processed

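The authors deposited 1 log10 ratio per feature and array (6 arrays). The scale was read from the values, and image analysis, background treatment, normalization and numerator channel were not given in the sources used here. Intensities were not used, so signal over background is unknown, and the number of arrays limits precision. Of 7684 rows, 1 had no numeric identifier and was dropped, and 3 repeated identifiers were averaged. Platform annotation named 6695 of the 7680 features and left 985 unnamed; 6690 named features matched the R64 gene table. Values were converted to log2 and centred on each array's median. limma 3.58.1 (lmFit, eBayes, R 4.3.3; two-sided, Benjamini-Hochberg) fitted both readings together on features with at least 4 arrays and 2 of each channel assignment. The fit was tested on simulated data. A gene's features were averaged for its mean and are also given singly.

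Members, lists and tests were chosen with earlier results of these data known. Named list genes are, per reading and side, the 2 largest shifts that pass, or else the smallest p. For likeness, 5 features were named per member. Promoter and protein sequences were not analysed here. Alternatives changed the arrays, centring, scaling, missing-value filter, slide position, small-number ratios, weights, days, the orientation of array 1 and the joint fit of the readings.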

Additional observations from a re-analysis of the deposited data

Results flagged for a closer look

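HSP12 on array 1, at −1.61 in the columns as deposited, lay far from the other 5 arrays (1.36 to 2.73): the gap to the nearest was 0.686 of the whole range, above Dixon's 95% critical value for 6 values. For HSP26 on array 1 the same share was 0.548, below it. After turning by the labelled channel no member feature passed this limit. HSP12 was chosen with these values known, so this describes them and tests nothing. Chance alone puts about 1 in 20 groups past it.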

How the results depend on the processing

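All 6 turned values of HSP104 were negative and known at its choice, so leaving out, weighting or averaging arrays could only give a negative mean. Its turned mean ran from −3.47 to −0.76 over the alternatives run, and from −1.49 to −1.17 with single arrays left out. The value nearest 0 was that with array 1 turned over, −0.76 ± 1.38 (SD, n = 6). HSP12 and HSP26 as deposited, known at their choice to be positive on 5 arrays after centring, had positive means under every alternative run. These ran from 0.17 to 2.24 and from 0.40 to 2.24. Without centring they were 0.52 ± 3.47 and 0.73 ± 3.71 (SD, n = 6). The sign pattern was then lost, since both genes were negative on arrays 1, 4 and 6. With single arrays left out the mean of HSP12 was 1.08 to 1.95 as deposited and −1.18 to −0.24 turned, that of HSP26 1.23 to 2.24 and −1.48 to −0.20, that of HSP42 0.22 to 0.53 and −0.45 to −0.09, and that of HSP104 −0.25 to 0.56 as deposited. The turned mean of HSP12 changed sign without ratios of small whole numbers (0.099), with array 1 turned over (0.0091) and within day 1 (0.49). That of HSP104 as deposited changed sign under 5 alternatives and that of HSP42 turned within day 4 (0.0011). Without centring the turned means were −2.64 for HSP12, −2.80 for HSP26, −2.33 for HSP42 and −3.47 for HSP104, and that of HSP42 as deposited was −0.50. There the shift of whole arrays enters each value, with array medians from −3.91 on array 4 to 4.11 on array 3.

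After turning, the count of features called in limma (1) was 4887 without centring (1 positive, 4886 negative), 191 with array weights, 2 with arrays scaled to 1 spread, 0 with only features valued on all 6 arrays, 0 after the neighbourhood correction with or without array 1, 0 with the labelled day as a block, and 0 to 4 with single arrays left out (0 without array 4, 5 or 6, 4 without array 3). As deposited (127) it was 2 without centring, 676 with array weights, 3 after the neighbourhood correction and 0 with it and without array 1, 2 with array 1 turned over, 0 with arrays of a day averaged, and 0 to 214 with single arrays left out. Where a count was 0, 534 to 1094 features had an unadjusted limma p under 0.05. Of the 139 list features, 103 passed after turning without centring, and with array weights 6 after turning and 9 as deposited, against 0. The cause of these changes was not tested. Combining the neighbourhood correction with leaving out array 1, and the day as a block, were chosen after seeing the data. With Pearson's correlation in place of the uncentred one, 2 of the 5 most similar features were shared for HSP12 and HSP26 and 3 for HSP42 and HSP104. With the labelled day as a block, which rests on the 4 arrays of days 1 and 4, the turned means were −0.65 for HSP12, −1.62 for HSP26, −0.37 for HSP42 and −1.61 for HSP104. The arrays form 1 group, so no replicate numbers pair samples across groups. The planned search for promoter motifs was not run.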
